A study of Mus musculus with 12 samples.

Results

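The mitochondrial ribosome is the organelle's own translation machine, and all of its proteins are encoded in the nucleus, made in the cytosol and imported. The genes described here are all those on the array whose single annotated symbol is Mrpl or Mrps followed by a number, which gave 76 genes (47 Mrpl and 29 Mrps) of the 18193 genes measured. They were represented by 156 probe sets, and a gene's value was the mean of its probe sets. A single probe set stood for 34 of the genes. Another 4 probe sets carried a second symbol beside an Mrp symbol and were left out.

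The tumours were C4-HD mammary carcinomas, a transplanted mouse tumour that depends on progestin, grown in BALB/c mice carrying a pellet of the progestin MPA (medroxyprogesterone acetate). The groups were tumours with MPA, tumours labelled as without MPA and given saline for 48 h, and tumours given MFP (mifepristone, a progesterone receptor antagonist) for 6 h, 12 h, 24 h or 48 h. MFP was given as a pellet of 10 mg/kg/day after the MPA pellet was removed, at a tumour size of 50 mm2. Each of the 6 groups had 2 arrays. The RNA was extracted from tissue fixed in formalin and embedded in paraffin, with 200 ng hybridized per array to the Mouse Genome 430 2.0 chip. The protocol text calls saline-treated tumours with MPA the control, while the source label of the saline group says no MPA, and that group is called no MPA here as its source label does. The 6 h group rests on the sample labels, since the series text names only 12 h, 24 h and 48 h. All groups share the tumour line, the strain and earlier growth under MPA, and the sources used here do not give the age of the mice. The series text calls the arrays independent replicates without naming separate animals, so the tests measure the spread between these arrays, which may be technical.

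The deposited values set each array, on the log2 scale, against the average of the pair with MPA, so 0 is the MPA level and the height of a signal above background cannot be read. The labelled tissue could for that reason be checked only by ratios. The median of 14 carcinoma epithelium markers lay between -0.39 and 0.55 on the 12 arrays. Genes of other organs differed far more: the median of 18 liver genes was 3.54 and 4.10 at 24 h of MFP, and 11 genes of the exocrine pancreas had 5.64 and 4.46 at 6 h and 4.40 and 5.26 after 48 h. In bulk tissue, fewer cells of a type and less RNA per cell cannot be told apart.

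As background, the mammalian mitochondrial ribosome has a small subunit, which holds the messenger and decodes it, and a large subunit, which forms the peptide bonds and holds the exit tunnel. It makes the few proteins encoded in mitochondrial DNA, all of them subunits of the respiratory chain and the ATP synthase. Many of its proteins descend from bacterial ribosomal proteins, and others were added in the evolution of mitochondria. Of the 76 genes, 49 encode proteins of the large subunit and 26 of the small one, and Mrps36 is now known as a subunit of the alpha-ketoglutarate dehydrogenase complex. Mrps30 and Mrps18a keep an Mrps symbol but their proteins sit in the large subunit.

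Because many of these genes were low together, their promoters were searched for short motifs of factors known to act on nuclear genes for mitochondrial proteins. RefSeq windows of 300 bases (250 before and 50 after the start, build GRCm38.p6) were matched for 67 of the 76 genes. The promoter of Mrps18b, the gene with the smallest p at 6 h of MFP, spans chr17:35916391-35916690 on the minus strand and holds the NRF1 core at 2 places. Mrpl49, lower at 24 h and at 48 h, has a window at chr19:6057706-6058005 on the minus strand with 1 YY1 match. The promoter of Mrpl12, called lower at 12 h and at no other single MFP time, spans chr11:120484387-120484686 on the plus strand and has none of the motifs searched. The promoter of Mrpl50, called lower at 3 MFP times, has none of them either and is not printed. The capitals mark the NRF1 core, read on the opposite strand in Mrps18b, and the YY1 motif in Mrpl49.
Mrps18b: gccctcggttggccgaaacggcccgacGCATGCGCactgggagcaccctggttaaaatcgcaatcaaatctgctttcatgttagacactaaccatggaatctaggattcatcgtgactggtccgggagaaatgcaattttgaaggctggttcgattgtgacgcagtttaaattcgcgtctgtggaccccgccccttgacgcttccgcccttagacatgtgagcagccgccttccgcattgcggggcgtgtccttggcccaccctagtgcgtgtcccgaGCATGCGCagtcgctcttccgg
Mrpl49: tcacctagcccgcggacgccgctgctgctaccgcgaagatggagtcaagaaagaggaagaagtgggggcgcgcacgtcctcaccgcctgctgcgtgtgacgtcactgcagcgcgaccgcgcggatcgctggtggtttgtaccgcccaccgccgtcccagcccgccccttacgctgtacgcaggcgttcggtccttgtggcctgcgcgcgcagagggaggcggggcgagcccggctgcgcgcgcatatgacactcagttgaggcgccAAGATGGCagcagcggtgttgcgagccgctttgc
Mrpl12: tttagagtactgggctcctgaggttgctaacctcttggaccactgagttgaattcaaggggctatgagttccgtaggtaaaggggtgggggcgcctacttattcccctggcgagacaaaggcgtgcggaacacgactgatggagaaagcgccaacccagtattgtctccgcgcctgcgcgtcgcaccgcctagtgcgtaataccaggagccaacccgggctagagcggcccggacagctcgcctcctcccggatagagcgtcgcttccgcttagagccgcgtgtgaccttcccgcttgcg

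The motifs were the NRF1 core GCGCATGC, the GABPA motif CCGGAAGT, the YY1 motif AAGATGGC and the E-box CACGTG, each sought on both strands, with no overlap between the matches found. The YY1 motif was in 12 of the 67 promoters (17.91%), against 3.71% of the windows of all genes on the array. GABPA matched 11 (16.42%, against 6.173%) and the NRF1 core 8 (11.94%, against 4.287%). The E-box, the sequence bound by MYC and its relatives, was in 5 (7.463%, against 9.041%). At least 1 motif was present in 30 promoters (44.78%, against 20.69%). A match is a description of these letters and not a site of binding. The genes with and without a motif had nearly the same median change in the first 12 h of MFP, -0.33 for the 30 with any motif and -0.32 for the 37 without, in the comparison of the MFP 6 h and 12 h groups with the arrays without MFP described further on. Called lower there were 4 of 8 genes with the NRF1 core and 17 of 59 without. For YY1 it was 2 of 12 and 19 of 55, for GABPA 3 of 11 and 18 of 56, and for the E-box 2 of 5 and 19 of 62. These splits were not tested. The median count of CG pairs in a window was 21 for the members and 17 for the genes on the array.

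Across the 12 arrays the mitochondrial ribosomal protein genes were low in all MFP groups and lowest at 6 h and 12 h. Their median was -0.01 and 0.01 on the MPA arrays and -0.04 and -0.05 on the arrays without MPA. It was -0.36 and -0.34 at 6 h of MFP and -0.36 and -0.39 after 12 h. It was -0.26 and -0.23 at 24 h and -0.16 and -0.12 after 48 h. No MFP array had a member median as high as any array without MFP, while the median of all genes stayed between -0.09 and 0.01 on every array. The typical SD between the 2 arrays of a group, taken as the median over the 76 genes, ran from 0.09 after 12 h to 0.14 with MPA.

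**Figure D1:**
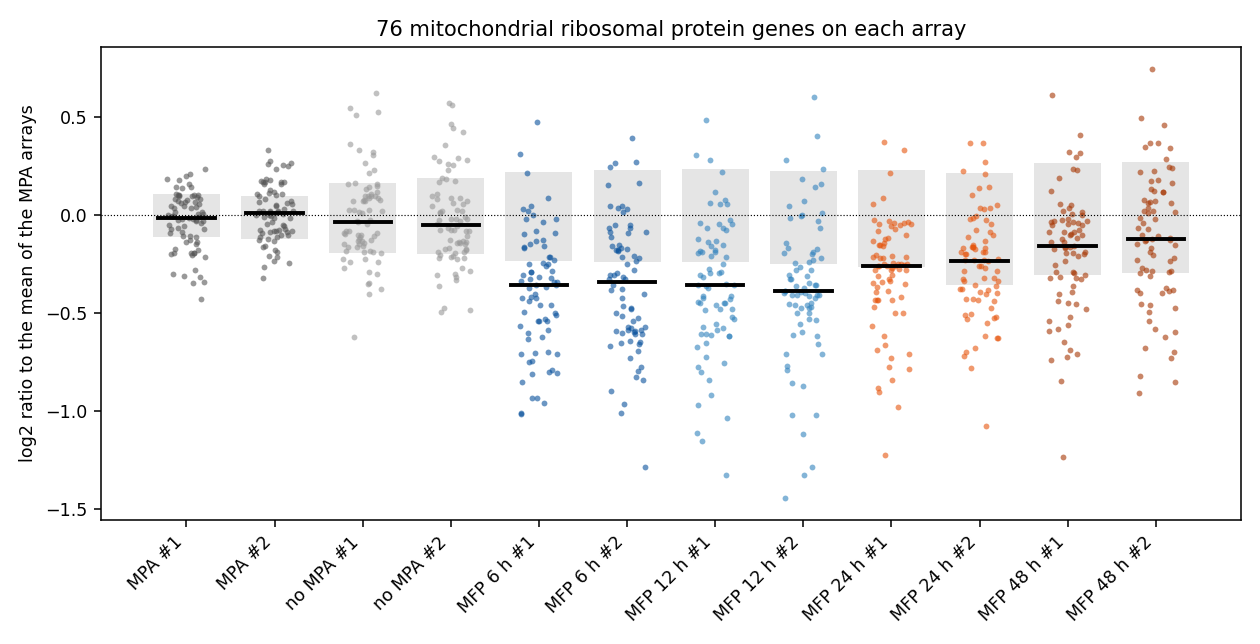
Log2 ratio to MPA (vertical axis) of the 76 genes, 1 point a gene, on each of the 12 arrays (horizontal axis); the black bar is their median and the grey box runs from the lower to the upper quartile of all 18193 genes. The member medians of -0.36, -0.34, -0.36 and -0.39 at 6 h and 12 h lie below the grey boxes, and those at 48 h, -0.16 and -0.12, lie inside them.

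The lowest MFP time differed between genes. It was 6 h for 26 of the 76 genes, 12 h for 24, 24 h for 19 and 48 h for 7. From 6 h to 48 h the mean was higher in 57 of the 76 genes, with a median difference of 0.19. At all 4 times 44 genes were below their MPA mean, a pattern seen in 23.2% of all genes, and these 4 comparisons share the same MPA arrays. In the tests below, 12 of the 76 genes passed as lower at 1 or more of the times (8.51% of all genes did), 5 at 2 or more (3.97% of all genes) and 0 at all 4 (0.599% of all genes).

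**Figure D2:**
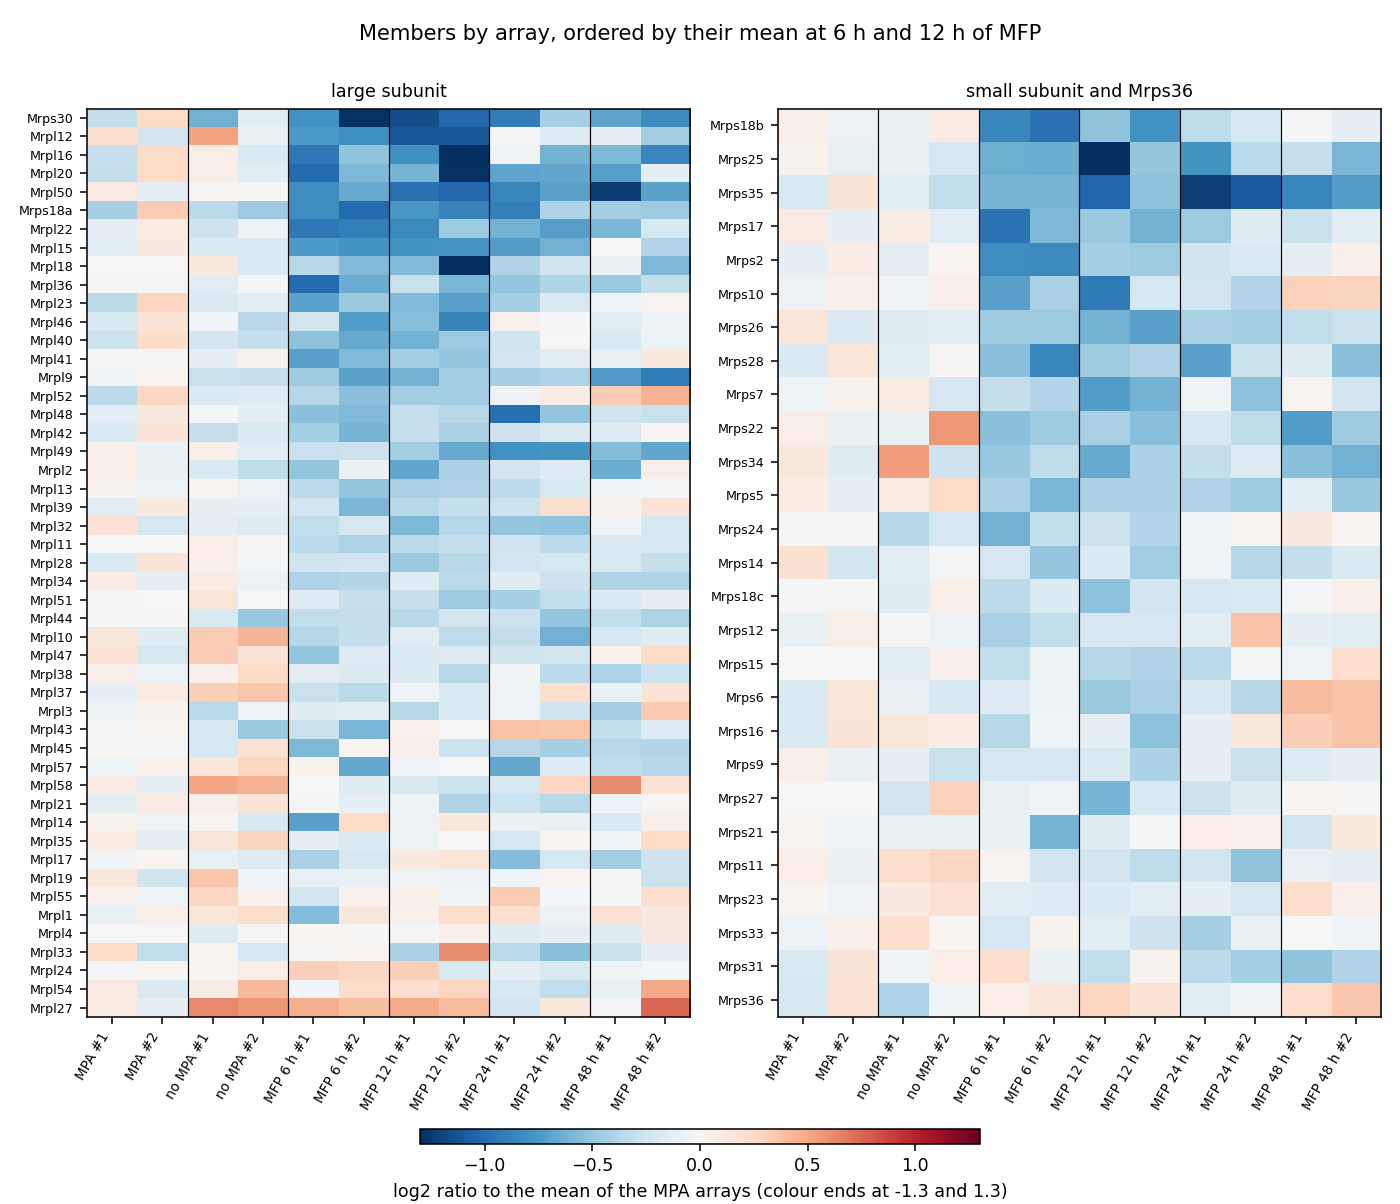
Log2 ratio to MPA (colour, blue lower and red higher, ends at -1.3 and 1.3) of each of the 76 genes (rows, ordered by the mean at 6 h and 12 h of MFP) on the 12 arrays (columns), with the large subunit on the left and the small subunit with Mrps36 on the right. Blue fills most rows at 6 h and 12 h and thins out at 48 h, while the bottom rows, such as Mrpl27 and Mrps36, are not blue there.

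The first comparison set 6 h of MFP against MPA. The MPA pellet had been removed in the MFP groups, and the only group labelled as without MPA had 48 h. At 6 h, 12 h and 24 h the effects of MFP and of MPA removal therefore cannot be told apart. The 76 genes had a median log2 change of -0.34 (a linear change of -21.1%), and 69 of them were below 0, where all genes had a median of 0.02 and 47.2% were below 0. With limma and Benjamini-Hochberg adjustment over all 18193 genes, 4 genes fell (1.35% of all genes fell) and 0 rose (0.418% of all genes rose). At an unadjusted p under 0.05, 30 were lower and 0 higher. Except for no MPA against MPA, unadjusted counts here and below stand without the number over all genes. They cannot be read as particular to the members. Both MFP arrays were below both MPA arrays in 55 of the 76 genes, against 22.2% of all genes.

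Mrps18b, one of 3 mammalian paralogs of the bacterial protein S18, belongs to the small subunit. Its values were 0.07 and -0.07 with MPA, -0.10 and 0.11 without MPA, -0.85 and -0.97 at 6 h, -0.52 and -0.79 after 12 h, -0.33 and -0.23 at 24 h, and -0.02 and -0.10 after 48 h. Both 6 h arrays lay far below the arrays without MFP, and at 48 h 1 array lay within their range and the other just below it. The change at 6 h was -0.91 ± 0.15 (SE, limma, adjusted p = 0.0242).

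Mrps2, the counterpart of bacterial S2 in the small subunit, had -0.11 and 0.10 with MPA, -0.13 and 0.02 without MPA, -0.81 and -0.82 at 6 h, -0.44 and -0.46 after 12 h, -0.26 and -0.17 at 24 h, and -0.12 and 0.06 after 48 h. It had the same order of times as Mrps18b, with close agreement between the arrays of a group. It fell by 0.81 on the log2 scale at 6 h (SE 0.14, limma, adjusted p = 0.0280). Mrpl22, whose bacterial counterpart lines the exit tunnel, had -0.93 and -0.90 at 6 h, against -0.11 and 0.10 with MPA (change -0.91 ± 0.19, limma, adjusted p = 0.0452). Mrpl36, a very small protein of the large subunit, had -1.01 and -0.65, against 0.02 and -0.02 (change -0.83 ± 0.17, limma, adjusted p = 0.0470). The smallest p among the genes above 0 was that of Mrpl27, a large subunit protein, at 0.47 and 0.39 on the 6 h arrays (change 0.43 ± 0.24, limma, adjusted p = 0.428). Without MPA replicate 1 the count of called genes was 1, and without MPA replicate 2 or either 6 h array it was 0. Across the comparisons of 2 groups with calls, quantile normalization called 0 members, as did a fit on the 4 compared arrays alone. Counts under such alternatives or with an array left out, here and below, stand without the share of all genes called. A loss of calls in them cannot be read as particular to the members.

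At 12 h the picture was of the same size with other genes past the threshold. The median change from MPA was -0.36 (-22.1%), and 64 of the 76 genes were below 0. By limma 5 genes fell (2.89% of all genes) and 0 rose (1.83% of all genes), with 34 lower and 0 higher at an unadjusted p under 0.05. Both arrays were below both MPA arrays in 53 genes, against 23.4% of all genes. Mrps18b was the one gene called at both 6 h and 12 h, with a change of -0.65 ± 0.15 after 12 h (limma, adjusted p = 0.0442).

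Mrpl12 forms the flexible stalk of the large subunit on which translation factors act. Its values were 0.21 and -0.24 with MPA, 0.53 and -0.08 without MPA, -0.75 and -0.80 at 6 h, -1.11 and -1.12 after 12 h, -0.03 and -0.17 at 24 h, and -0.10 and -0.46 after 48 h. The arrays without MFP were spread, yet all 4 arrays of 6 h and 12 h lay below them, and those of 24 h lay back inside their range. It fell by 1.10 after 12 h (SE 0.23, limma, adjusted p = 0.0284), and the change at 6 h, -0.75 ± 0.23, did not pass (limma, adjusted p = 0.145).

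Mrpl50, a protein of the large subunit without bacterial counterpart, was low at every MFP time. It had 0.11 and -0.13 with MPA, 0.03 and 0.02 without MPA, -0.81 and -0.66 at 6 h, -0.97 and -1.02 after 12 h, -0.84 and -0.70 at 24 h, and -1.23 and -0.70 after 48 h. It was the one gene called at 3 of the 4 times, with -0.98 ± 0.19 after 12 h (limma, adjusted p = 0.0198), -0.76 ± 0.19 at 24 h (adjusted p = 0.0327) and -0.96 ± 0.19 after 48 h (adjusted p = 0.0127). Unlike in Mrps18b and Mrpl12, no MFP array returned to the range of the arrays without MFP.

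Mrpl15, counterpart of bacterial L15 and the member with most probe sets (8), had -0.75 and -0.77 at 6 h, -0.77 and -0.77 after 12 h, -0.73 and -0.63 at 24 h, and 0.00 and -0.38 after 48 h, against -0.14 and 0.12 with MPA and -0.19 and -0.19 without MPA. It held one level from 6 h to 24 h and was higher again at 48 h. It fell at 12 h (-0.76 ± 0.16, limma, adjusted p = 0.0312) and at 24 h (-0.67 ± 0.16, adjusted p = 0.0323). Mrps26, a small subunit protein found only in mitochondria, had -0.62 and -0.71 after 12 h, against 0.16 and -0.18 with MPA (-0.65 ± 0.15, limma, adjusted p = 0.0368). Leaving out 1 array gave 2 called genes without MPA replicate 1, 3 without MPA replicate 2, 1 without 12 h replicate 1 and 0 without 12 h replicate 2.

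Signals of other organs differed between 6 h and 12 h. The liver medians at 12 h were -1.65 and -1.38, within the range of the arrays without MFP (-2.38 to 0.85), and the exocrine pancreas medians were 0.15 and 1.08, the second above the range without MFP (-1.19 to 0.57). At 6 h the pancreas medians were 5.64 and 4.46. The part of other organs in the members' values was not tested. The median of 19 genes of dividing cells was -0.08 and -0.12 at 6 h and -0.51 and -0.78 after 12 h. The difference between the 3' and 5' probe sets of the Actb control, a sign of RNA quality, was 0.20 and 0.13 at 6 h, 0.34 and 0.36 after 12 h, 0.35 and 0.50 at 24 h, and 0.47 and 0.59 after 48 h, against -0.09 to 0.14 without MFP. The same difference for the Gapdh control had group means of 0.02 at 6 h, 0.28 after 12 h, 0.49 at 24 h and 0.42 after 48 h, against 0.02 with MPA and -0.01 without. The Actb difference was largest at 48 h and that of Gapdh at 24 h, and their part in the members' values was not tested.

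At 24 h the members lay nearer to MPA, and 4 of the 5 called genes encode large subunit proteins, as do 49 of the 76 members. The median change was -0.24 (-15.5%), with 64 of 76 below 0 and 50 without overlap below MPA (28.6% of all genes). By limma 5 fell (4.58% of all genes) and 0 rose (4.42% of all genes), with 21 lower and 1 higher at an unadjusted p under 0.05. The share of members that fell was thus not far above that of all genes. Mrps35, a small subunit protein without bacterial counterpart, was lowest at this time, with -1.23 and -1.08, against -0.20 and 0.17 with MPA and -0.13 and -0.32 without MPA. Its other MFP values were -0.60 and -0.60 at 6 h, -1.03 and -0.54 after 12 h, and -0.85 and -0.73 after 48 h. All 8 MFP arrays were thus below the arrays without MFP, and it passed at 24 h (-1.14 ± 0.20, limma, adjusted p = 0.00734) and at 48 h (-0.78 ± 0.20, adjusted p = 0.0318).

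Mrpl49, another large subunit protein of mitochondria alone, had lower means at each time up to 24 h. It had 0.07 and -0.08 with MPA, 0.07 and -0.13 without MPA, -0.29 and -0.28 at 6 h, -0.45 and -0.66 after 12 h, -0.79 and -0.78 at 24 h, and -0.56 and -0.68 after 48 h. It fell at 24 h (-0.78 ± 0.15, limma, adjusted p = 0.0113) and at 48 h (-0.61 ± 0.15, adjusted p = 0.0260). Mrpl48, also of the large subunit, had -0.98 and -0.51 at 24 h, against -0.15 and 0.11 with MPA (-0.73 ± 0.17, limma, adjusted p = 0.0304). The smallest p above 0 belonged to Mrpl43, with 0.37 and 0.37 at 24 h and a change of 0.37 ± 0.16 (limma, adjusted p = 0.188). The count was 3 without MPA replicate 2 and 2 without MPA replicate 1 or either 24 h array. These are the arrays with the high liver medians of 3.54 and 4.10, and the second has a pancreas median of 6.35 against 0.83 in the first. The part of these in the 24 h values was not tested.

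At 48 h the members as a group were near MPA while a few stayed low. The median change was -0.12 (-7.84%), with 55 of 76 below 0, and 31 lay without overlap below MPA (27.9% of all genes did). By limma 4 fell (6.00% of all genes) and 0 rose (6.08% of all genes), with 12 lower and 1 higher at an unadjusted p under 0.05. The share of members that fell was therefore near that of all genes. Where the probe set with the largest SD stood for each gene, the median was -0.23.

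Mrpl9, the counterpart of bacterial L9, had -0.04 and 0.03 with MPA, -0.29 and -0.30 without MPA, -0.46 and -0.69 at 6 h, -0.61 and -0.45 after 12 h, -0.43 and -0.40 at 24 h, and -0.74 and -0.91 after 48 h. It was lowest at 48 h, where it fell by 0.82 on the log2 scale (SE 0.14, limma, adjusted p = 0.00887). Mrps6, the counterpart of bacterial S6, went the other way at 48 h, with 0.41 and 0.37, against -0.18 and 0.16 with MPA (0.40 ± 0.15, limma, adjusted p = 0.129). It had -0.17 and -0.07 at 6 h, -0.48 and -0.42 after 12 h, and -0.21 and -0.38 at 24 h, so both 48 h arrays were above the other 10. The count at 48 h was 1 without MPA replicate 1 or 48 h replicate 1, 2 without 48 h replicate 2 and 4 without MPA replicate 2. At 48 h the median of 13 macrophage genes was 1.71 and 1.87 and that of 13 fibroblast genes 1.27 and 1.57, against highest values of 0.45 and 0.49 without MFP. The median of 15 skeletal muscle genes was 3.25 on 48 h replicate 1 and 0.07 on replicate 2, against a highest value of 0.63 without MFP. The part of these in the members' values was not tested.

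**Figure D3:**
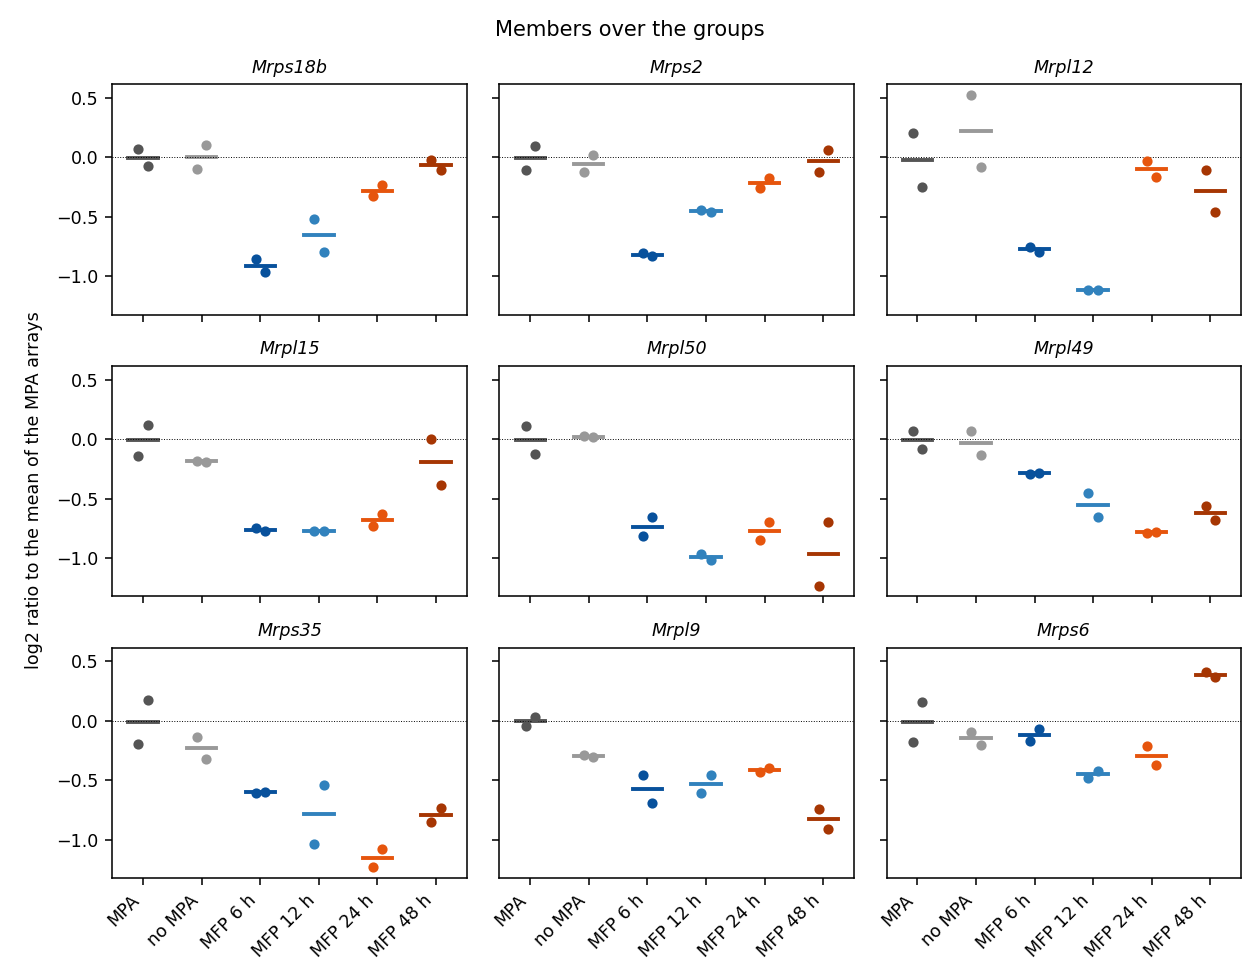
Log2 ratio to MPA (vertical axes, shared scale) in the 6 groups (horizontal axes) for 9 genes named in the text; points are arrays (2 a group) and bars are group means. Mrps18b and Mrps2 are lowest at 6 h and back within the range of the arrays without MFP on their 48 h means, Mrpl12 is lowest at 12 h, and Mrpl50, Mrpl49, Mrps35 and Mrpl9 are still low at 48 h.

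The tumours labelled as without MPA were set against those with MPA, with no antagonist given in either group. Since the protocol text calls saline-treated tumours with MPA the control, whether this group had lost the progestin is not settled. The median change of the members from MPA was -0.03, with 45 of 76 genes below 0, and 11 lay without overlap below MPA (16.7% of all genes). By limma 0 members fell and 0 rose, as did 0% of all genes in either direction. At an unadjusted p under 0.05 there were 3 higher members and 1 lower, and 1221 of all genes. Mrpl27 had the smallest p among the higher ones, with 0.62 and 0.57, against 0.10 and -0.10 with MPA (0.60 ± 0.24, limma, adjusted p = 0.719). Mrpl43 had it among the lower ones, with -0.23 and -0.48, against -0.02 and 0.02 (-0.35 ± 0.16, limma, adjusted p = 0.738).

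MFP at 48 h was also set against the tumours without MPA, which the labels give the same 48 h. The median difference was -0.10, with 53 of 76 genes below 0. By limma 4 members were lower (5.23% of all genes) and 1 higher (7.03% of all genes). The share of members that were lower was near that of all genes, and the share that were higher was below it. Mrpl50 (-0.99 ± 0.19, adjusted p = 0.0102), Mrpl49 (-0.59 ± 0.15, adjusted p = 0.0290) and Mrpl9 (-0.53 ± 0.14, adjusted p = 0.0424) were lower than in either set of tumours without MFP. Mrps22, a small subunit protein of mitochondria alone, was the 4th, at -0.72 and -0.46, against -0.09 and 0.56 without MPA (-0.83 ± 0.21, limma, adjusted p = 0.0308). Its arrays without MPA were far apart. Mrps6 was higher (0.54 ± 0.15, limma, adjusted p = 0.0499). The count of 5 was 0 without 48 h replicate 1 and 1 without 48 h replicate 2 or either array without MPA.

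Because no single time had more than 2 arrays, and the members were low at 6 h and at 12 h alike, the mean of the MFP 6 h and 12 h groups was set against the mean of the MPA and no MPA groups. This comparison of 4 arrays with 4 was chosen after the data had been seen. Its counts and p values therefore describe these arrays and carry no weight as a test. The median was -0.33 (-20.6%), and 70 of the 76 genes were below 0. By limma 24 genes were lower, which is 31.6% of the members against 5.29% of all genes, and 0 were higher (3.42% of all genes), with 48 lower and 1 higher at an unadjusted p under 0.05. All 4 early MFP arrays lay below all 4 arrays without MFP in 40 genes, against 8.65% of all genes. The 24 were 15 of the 49 large subunit genes and 9 of the 26 small subunit genes, with changes from -1.04 to -0.38.

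Mrps18b (-0.78 ± 0.11, limma, adjusted p = 0.00302), Mrpl50 (-0.87 ± 0.13, adjusted p = 0.00441) and Mrpl12 (-1.04 ± 0.16, adjusted p = 0.00471) had the smallest p. Mrps2, Mrpl15, Mrpl22, Mrpl41 and Mrpl36 followed, between -0.70 and -0.54 in size. The rest were Mrps17, Mrps26, Mrps5, Mrps30, Mrpl16, Mrpl11, Mrps35, Mrps22, Mrpl20, Mrpl13, Mrpl10, Mrpl9, Mrpl49, Mrpl18, Mrps25 and Mrps10. They include proteins of the decoding side of the ribosome, such as the S5, S10 and S17 counterparts, and of its large subunit core, such as the L13, L16 and L20 counterparts. The 6 genes above 0 were Mrps36, Mrpl24, Mrpl27, Mrpl33, Mrpl54 and Mrpl4, and the largest of them, Mrps36, had 0.29 ± 0.13 (limma, adjusted p = 0.209). The count of 24 fell to 18 without MPA replicate 1, 12 without MPA replicate 2 or 12 h replicate 1, 11 without no MPA replicate 1, 10 without 6 h replicate 2 or 12 h replicate 2, and 9 without 6 h replicate 1 or no MPA replicate 2. It was 6 under quantile normalization.

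Steps between neighbouring MFP times were small for most members. From 6 h to 12 h the median difference was 0.01, and by limma 0 members rose or fell, as did 0% of all genes in either direction, with 4 higher and 0 lower at an unadjusted p under 0.05. The smallest p values were those of Mrpl43 (0.47 ± 0.16, limma, adjusted p = 0.5003) and, on the lower side, Mrps6 (-0.33 ± 0.15, adjusted p = 0.658). From 12 h to 24 h the median was 0.12, 1 member rose (2.11% of all genes) and 0 fell (0.742% of all genes), with 6 higher and 3 lower at an unadjusted p under 0.05. The riser was Mrpl12, whose arrays went from -1.11 and -1.12 to -0.03 and -0.17 (1.02 ± 0.23, limma, adjusted p = 0.0477), and it did not pass when any 1 of the 4 arrays was left out. Mrpl17, a large subunit protein, had the smallest p on the lower side (-0.53 ± 0.16, limma, adjusted p = 0.129). From 24 h to 48 h the median was again 0.12, while by limma 0 members rose (0.660% of all genes) and 0 fell (1.76% of all genes), with 7 higher and 2 lower at an unadjusted p under 0.05. Mrps6 came nearest to a rise (0.68 ± 0.15, limma, adjusted p = 0.0542) and Mrpl43 to a fall (-0.61 ± 0.16, adjusted p = 0.0882).

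The slope on log2 of hours within the 8 MFP arrays uses no MPA array. Its median over the members was 0.07 per doubling of time, and 57 of 76 genes had a slope above 0. By limma 6 members rose along the times (6.77% of all genes) and 0 fell (4.88% of all genes), with 21 rising and 2 falling at an unadjusted p under 0.05. The share of members that rose was therefore near that of all genes. The steepest called slopes were those of Mrpl52 (0.30 per doubling, limma, adjusted p = 0.00887) and Mrps18b (0.29 ± 0.05, adjusted p = 0.00498). Mrpl52, a large subunit protein, had -0.37 and -0.54 at 6 h, -0.45 and -0.46 after 12 h, -0.07 and 0.10 at 24 h, and 0.32 and 0.46 after 48 h, against -0.35 and 0.26 with MPA. Its 48 h arrays were the highest of the 12.

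Mrps2 rose with 0.26 per doubling (limma, adjusted p = 0.00628), as did Mrpl41 with 0.23 (adjusted p = 0.0129), Mrpl23 with 0.21 (adjusted p = 0.0418) and Mrps24 with 0.20 (adjusted p = 0.0329). Mrpl41 went from -0.71 and -0.57 at 6 h to -0.10 and 0.13 after 48 h. Mrpl23, whose bacterial counterpart lies at the mouth of the exit tunnel, went from -0.70 and -0.48 to -0.05 and 0.04, and Mrps24, the counterpart of bacterial S3, from -0.62 and -0.32 to 0.12 and 0.02. For these genes the 48 h arrays lay above both 6 h arrays. The steepest slope below 0 was that of Mrps31, which did not pass (-0.18 ± 0.05, limma, adjusted p = 0.0656). The count of 6 was 3 without 6 h replicate 1 or 48 h replicate 2, 4 without 12 h replicate 2 or 48 h replicate 1, and 12 under quantile normalization.

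A set of genes with known tasks was given on every array whatever its values, though it was chosen with earlier results of these data known. Mrpl45, which holds the ribosome to the inner membrane near the tunnel exit, had -0.59 and 0.03 at 6 h, 0.06 and -0.28 after 12 h, -0.37 and -0.43 at 24 h, and -0.36 and -0.38 after 48 h, against 0.01 and -0.01 with MPA and -0.23 and 0.19 without MPA. Its arrays of 6 h and of 12 h were too far apart to call, and no time passed (limma, smallest adjusted p = 0.319, at 24 h). Mrps12, whose bacterial counterpart sits in the decoding centre, had -0.42 and -0.32 at 6 h, -0.21 and -0.22 after 12 h, -0.15 and 0.37 at 24 h, and -0.12 and -0.13 after 48 h, against -0.09 and 0.08 with MPA and 0.01 and -0.08 without MPA. It was lowest at 6 h (-0.37 ± 0.18, limma, adjusted p = 0.355). Mrpl3, whose bacterial counterpart reaches towards the peptidyl transferase centre, had -0.16 and -0.15 at 6 h, -0.36 and -0.19 after 12 h, -0.05 and -0.26 at 24 h, and -0.44 and 0.34 after 48 h, against -0.07 and 0.05 with MPA and -0.35 and -0.05 without MPA. Its 6 h and 24 h arrays lay within the range of the arrays without MFP, and its 48 h arrays lay on either side of that range.

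Mrps30, the large subunit protein with an Mrps symbol, had some of the lowest values of the whole set, -0.79 and -1.28 at 6 h, -1.15 and -1.02 after 12 h, -0.90 and -0.43 at 24 h, and -0.69 and -0.82 after 48 h. Its arrays without MFP were also spread, at -0.31 and 0.26 with MPA and -0.62 and -0.15 without MPA. No single time passed (at 12 h, -1.06 ± 0.26, limma, adjusted p = 0.0529). The early comparison, chosen after the data had been seen, gave -0.86 ± 0.19 (limma, adjusted p = 0.0207), which describes these arrays only.

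The 3 paralogs of S18 can be set side by side. Mrps18a, in the large subunit, had -0.80 and -1.01 at 6 h, -0.75 and -0.87 after 12 h, -0.88 and -0.40 at 24 h, and -0.45 and -0.47 after 48 h, against -0.43 and 0.33 with MPA and -0.35 and -0.48 without MPA. Mrps18c, in the small subunit, had -0.34 and -0.18 at 6 h, -0.53 and -0.25 after 12 h, -0.22 and -0.19 at 24 h, and -0.03 and 0.07 after 48 h, against -0.02 and 0.02 with MPA and -0.16 and 0.08 without MPA. In the early comparison, chosen after the data had been seen, the change was -0.78 ± 0.11 for Mrps18b, with a limma adjusted p under 0.05. It was -0.63 ± 0.17 for Mrps18a (limma, adjusted p = 0.0538) and -0.30 ± 0.11 for Mrps18c (adjusted p = 0.129). Whether the paralogs differ from each other was not tested.

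Both subunits and both origins had low medians in the first 12 h, given here with no test between them. At 6 h the median change from MPA was -0.32 for the 49 genes of the large subunit and -0.36 for the 26 of the small one. At 12 h it was -0.33 with 38 of 49 below 0 and -0.40 with 26 of 26 below 0. The 45 genes with a bacterial counterpart had -0.33 at 6 h and the 28 found only in mitochondria -0.41. Their medians on the 6 h arrays overlapped, at -0.36 to -0.31 and -0.47 to -0.31. At 12 h the mean of the array medians was -0.37 for both.

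As a description over the 12 arrays, most members had similar profiles. The Pearson r of a member with the mean of the others had a median of 0.64, ran from -0.41 to 0.94, and was above 0.8 in 12 genes. The genes share the same arrays and normalization, so these values carry no test. Mrpl11 (0.94), Mrpl22 (0.90), Mrpl13 (0.89), Mrpl15 (0.89) and Mrps17 (0.87) were most like the rest. Mrpl11, whose bacterial counterpart belongs to the region where elongation factors bind, had -0.34 and -0.40 at 6 h, -0.35 and -0.31 after 12 h, -0.26 and -0.34 at 24 h, and -0.19 and -0.23 after 48 h, and its arrays without MFP all lay between -0.01 and 0.09.

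Mrps36 was least like the rest (r = -0.41), with 0.09 and 0.16 at 6 h, 0.28 and 0.18 after 12 h, -0.14 and -0.05 at 24 h, and 0.23 and 0.35 after 48 h, against -0.21 and 0.19 with MPA and -0.40 and -0.03 without MPA. It is the gene whose protein has since been placed outside the ribosome. Mrpl24 (-0.27), Mrpl43 (-0.14), Mrpl4 (-0.14) and Mrpl33 (-0.11) came next. Genes that were no member had a median r of -0.01 with the member mean, and 2.74% of them were above 0.8. Those most like it over the 12 arrays were Dkc1, Set, Rsl1d1, Utp4, Timm8a1 and Ddx39a (each 0.98) and C1qbp, Ddx21, Cct3 and Morf4l2 (each 0.97). Those least like it were Stradb, Kmt2e and Lrrtm2 (each -0.95), and Abhd4 and Agtrap (each -0.94).

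Probe sets of a gene did not always agree. Of the 42 members with several probe sets, all probe sets had a change of one sign in 22 at 6 h, 25 after 12 h, 19 at 24 h and 14 after 48 h. No member had probe sets called in opposite directions in any comparison of 2 groups or in the slope. In the early comparison Mrpl17 did, with 1 probe set lower, 1 higher and 1 not called among its 3.

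Genes that work beside the mitochondrial ribosome were read from fixed lists. Beside each list count stand the shares of all genes: 1.35% fell at 6 h, 2.89% after 12 h, 4.58% at 24 h and 6.00% after 48 h. Of all genes 0.418%, 1.83%, 4.42% and 6.08% rose at these times. The list medians here and in the next paragraphs are medians of the genes' changes from MPA. They can differ from the medians on each array. Of 4 ribosome proteins with other symbols, 0 fell at 6 h, 1 after 12 h, and 2 each at 24 h and 48 h, and their medians were -0.25, -0.61, -0.59 and -0.64. Dap3, a GTP-binding small subunit protein, fell at 48 h (-0.76 ± 0.17, limma, adjusted p = 0.0223), and Chchd1, another small subunit protein, at 12 h (-0.62 ± 0.13, adjusted p = 0.0332) and 48 h (-0.52 ± 0.13, adjusted p = 0.0352). Their medians at 48 h stayed low, where that of the members was -0.12.

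Of 26 genes for ribosome assembly and rRNA modification, 2 fell at 6 h, 3 after 12 h and 1 each at 24 h and 48 h, with medians between -0.29 and -0.18. At 24 h and 48 h, where 4.58% and 6.00% of all genes fell, the share of this list was no larger than that of all genes. C1qbp, a matrix protein bound to mitochondrial mRNA and ribosomes, had -1.20 ± 0.20 at 6 h (limma, adjusted p = 0.0238), and Fastkd2, which binds the mitochondrial rRNA, -0.72 ± 0.15 (adjusted p = 0.0480). Of 15 translation factors and mRNA partners, 2 fell at 6 h, and 2 fell and 1 rose at 12 h. Lrpprc, which keeps mitochondrial mRNA stable, fell at 6 h (-1.28 ± 0.23, limma, adjusted p = 0.0289) and at 12 h (-1.40 ± 0.23, adjusted p = 0.0110). Its partner Slirp fell at 12 h (-0.91 ± 0.20, limma, adjusted p = 0.0326). Tsfm, the exchange factor of the elongation factor Tufm, was the riser (1.05 ± 0.23 after 12 h, limma, adjusted p = 0.0345).

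Among 16 aminoacyl-tRNA synthetases of mitochondria, which load their tRNAs, 2 fell at 6 h, Ears2 (-0.96 ± 0.17, limma, adjusted p = 0.0257) and Nars2 (-0.75 ± 0.15, adjusted p = 0.0443). Of 12 genes that copy and transcribe mitochondrial DNA, 0 fell at 6 h and 12 h by limma, 1 at 24 h and 3 after 48 h. Those at 48 h were Tfam, the factor that packs that DNA (-0.66 ± 0.18, limma, adjusted p = 0.0422), Ssbp1 (-0.56 ± 0.14, adjusted p = 0.0326) and Mgme1 (-0.54 ± 0.15, adjusted p = 0.04998). This list was lowest at 48 h, with medians of -0.22, -0.17, -0.21 and -0.41 over the times, where the members were closest to MPA. Of 81 nuclear-encoded subunits of the respiratory chain, 62 were below 0 at 6 h, where 0 passed, and 72 after 12 h, where 5 fell. The share of all genes below 0 stands further up for 6 h and is not given for 12 h. Their medians were -0.18, -0.26, -0.15 and -0.11. Among 10 regulators, Myc, a transcription factor that drives growth genes, fell at each time, with -1.70 ± 0.27 at 6 h (limma, adjusted p = 0.0181) and -1.46 ± 0.27 after 48 h (adjusted p = 0.00979).

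The proteins of the cytosolic ribosome had another course. Of 46 genes 1 fell at 6 h, 6 after 12 h, 6 at 24 h and 8 after 48 h, where 1.35%, 2.89%, 4.58% and 6.00% of all genes fell. Their median changes from MPA were -0.09, -0.54, -0.22 and -0.23. At 6 h they lay near MPA on both arrays (-0.06 and -0.12), where the mitochondrial ones had -0.36 and -0.34. The 19 genes of dividing cells had median changes from MPA of -0.03, -0.66, -1.42 and -1.02, with 1, 6, 16 and 12 called lower, and were lowest at 24 h. Their medians on the 6 h arrays, another measure, were -0.08 and -0.12. None of these differences between lists was tested.

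**Figure D4:**
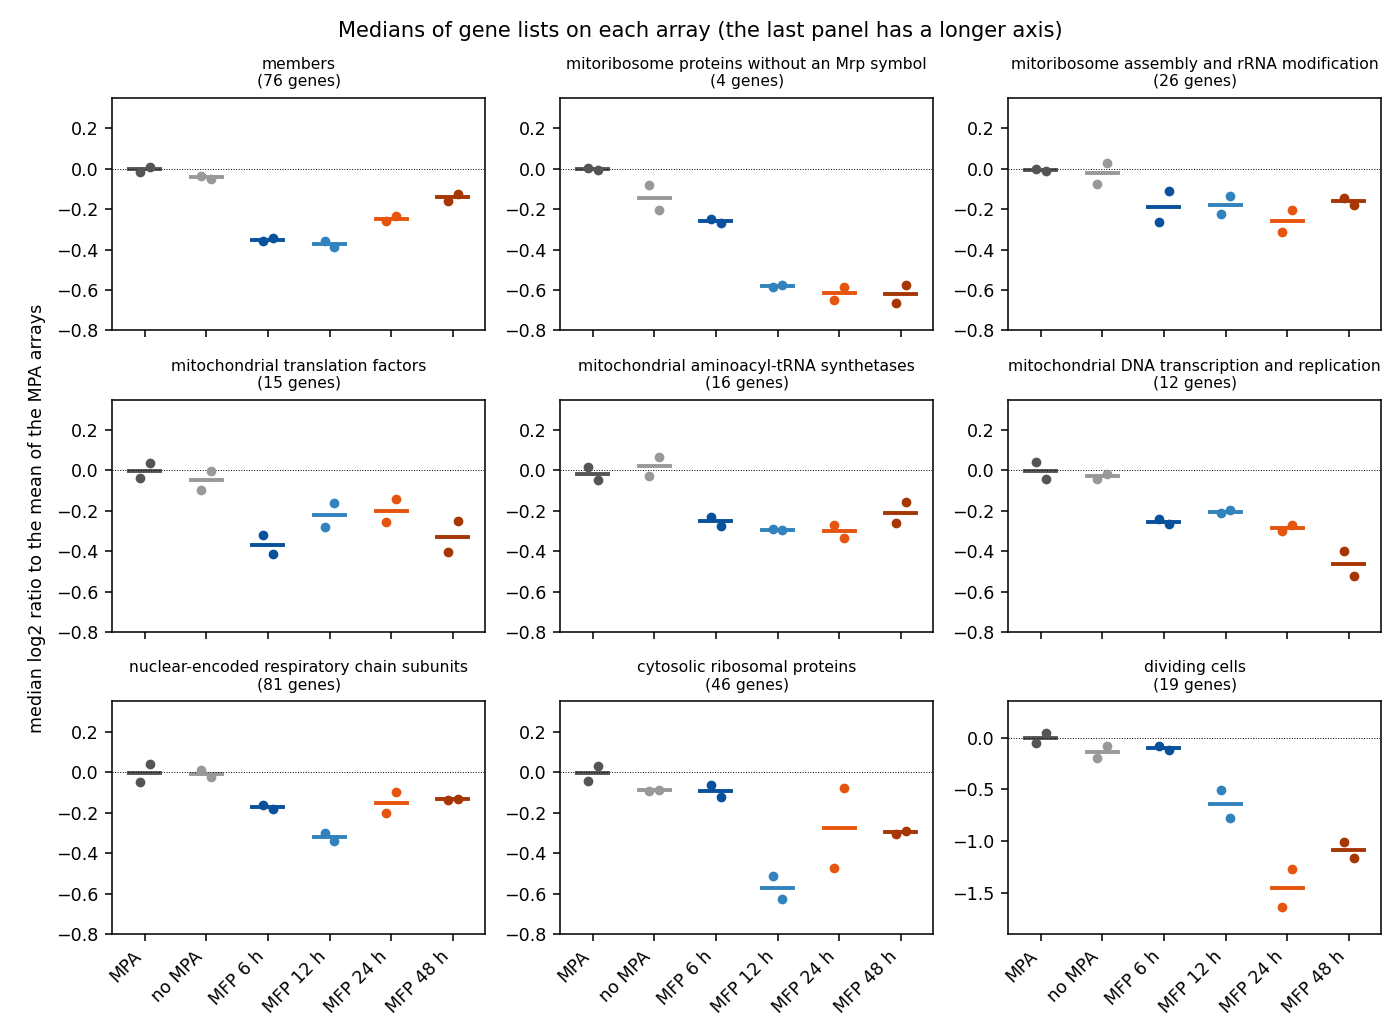
Median log2 ratio to MPA (vertical axes, the last panel on a longer axis) of the 76 mitochondrial ribosomal protein genes and 8 other gene lists in the 6 groups (horizontal axes); points are arrays and bars the mean of the 2 arrays. The members are lowest at 6 h and 12 h, the cytosolic ribosomal proteins at 12 h, the dividing cell genes at 24 h and the mitochondrial DNA genes at 48 h.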

How the data were processed

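Gene expression was measured on Affymetrix Mouse Genome 430 2.0 arrays, 12 in all. GCRMA is named in the submitters' processing notes, with no version. The authors deposited log2 values, which the files show to be log2 ratios to the mean of the MPA arrays taken on the linear scale, in 45099 of 45101 probe sets (tolerance 0.0001). Replicates had no numbers in the labels and were numbered in accession order. The platform annotation gave 1 symbol to 34945 probe sets, several to 932 and none to 9160, with 64 controls left out. Genes were the mean of their single-symbol probe sets. In limma 3.58.1 (R 4.3.3) a mean for each of the 6 groups was fitted over all 12 arrays, moderated by eBayes (residual df 6, prior df 3.75) and adjusted by Benjamini-Hochberg over 18193 genes at 0.05, so "rose", "fell" and "called" mean an adjusted p under 0.05. The slope was fitted on the 8 MFP arrays. The number of arrays limits the precision. Scripts were tested on simulated data.

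The members and lists were chosen with earlier results of these data known. The comparison of the MFP 6 h and 12 h groups with the arrays without MFP was added after seeing the data. Genes were named by rule: up to 8 called members per direction and comparison by smallest p (else the smallest p in each direction), a fixed set of 8, the 5 members most and 5 least correlated with the others, members with opposed probe sets, the 10 other genes most and 5 least correlated with the members, and up to 3 called genes per list and direction. The full list of the 24 genes of the added comparison goes beyond that rule. Alternatives were other probe set choices, centring, quantile normalization, robust eBayes, array weights, fits on the compared arrays alone and leaving out each array.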

Additional observations from a re-analysis of the deposited data

Results flagged for a closer look

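Differences between MFP times that passed their own test were as follows. Mrpl12 was higher at 24 h than at 12 h by 1.02 (log2, limma), where 2.11% of all genes rose. Slopes per doubling of MFP time passed in limma for Mrpl52 (0.30), Mrps18b (0.29), Mrps2 (0.26), Mrpl41 (0.23), Mrpl23 (0.21) and Mrps24 (0.20), all upward. Of all genes 6.77% had a slope called upward, a share near that of the members. No group had more than 2 arrays, so a single deviating array could not be tested for.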

How the results depend on the processing

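No paired analysis was possible because the labels carry no replicate numbers. The count of members past the threshold depended on the processing. The shares of all genes called under these alternatives are not given, so changes in the count cannot be read as particular to the members. Quantile normalization, which stretches the MPA arrays (SD over genes 0.233, against 0.745 in MFP 24 h replicate 2), gave 0 at 6 h, 12 h, 24 h and 48 h against MPA, 0 for 48 h against no MPA, 0 for 24 h against 12 h, 12 for the slope and 6 for the early comparison. Fits on the compared arrays alone, which have fewer residual degrees of freedom, gave 0 in the same 6 comparisons of 2 groups. Without x and s probe sets the count was 2 at 6 h, 3 at 12 h, 0 for 24 h against 12 h and 1 for 48 h against 24 h. Array weights gave 2 at 6 h, 2 at 24 h and 0 for 24 h against 12 h, and centring gave 3 at 24 h; the causes were not tested. Leaving out 1 array gave 0 to 1 at 6 h, 0 to 3 at 12 h, 2 to 3 at 24 h, 1 to 4 at 48 h, 0 to 1 for 48 h against no MPA, 0 in each other comparison of 2 groups, 3 to 6 for the slope and 9 to 18 for the early comparison. The lone array left in a group was assumed to vary like the other groups. Over 624 alternatives for 51 values of single genes, 0 changed direction. These genes were named for the smallest p in a direction, so a change of direction was unlikely from the start. Apart from leaving out single arrays, 75 alternatives were weaker, 277 the same and 4 stronger. Under quantile normalization 26 were weaker and 25 the same. The member median for no MPA against MPA was 0.01 without MPA replicate 2, and that for 12 h against 6 h was -0.03 without x and s probe sets.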
